A study of Homo sapiens with 4 samples.

Results

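The carriers through which liver cells exchange bile acids, hormones and drugs with the blood were measured in Huh7 cells, an established human hepatocellular carcinoma line, on 4 single-colour microarrays. A scramble short hairpin RNA (shRNA) was stably carried by the control cells (2 arrays), and an shRNA against ACOT12 by the others (2 arrays). ACOT12 is a cytosolic acetyl-CoA thioesterase, and all cells were selected with puromycin. The stated purpose of the comparison was to find genes downstream of ACOT12. The carriers were chosen by name as basolateral transporters of bile acids, organic anions and organic cations: SLC10A1, SLCO1B1, SLCO1B3, SLCO2B1, SLC22A3, SLC22A7, SLC22A9, SLC51A and SLC51B. Of these 9 genes, 8 were measured, each by 1 probe, among 19090 genes and 28264 probes, and SLC22A3 was not analysed here. Whether replicate arrays stem from different cultures is not said in the labels, so the spread behind each p-value is that of these arrays and may be technical.

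Hepatocytes take bile acids up from portal blood through SLC10A1 and the organic anion transporting polypeptides of the SLCO family, and secrete them across the canalicular membrane into bile. SLC22 proteins carry smaller organic anions and cations across the same basolateral membrane. SLC51A and SLC51B form a heterodimer that lets bile acids leave the cell toward the blood, so the group holds an export route beside its uptake carriers. Intracellular bile acids, through their nuclear receptor, raise transcription of the SLC51 genes and lower that of SLC10A1.

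SLCO1B1 and SLCO1B3 are liver paralogs that lie near each other on chromosome 12, and SLC51B lies on chromosome 15. Their promoters are shown because the paralogs share a motif of liver promoters and SLC51B carries a half-site of the kind that nuclear receptors bind. Each run is the 250 bases before the transcription start, read 5′ to 3′ on the plus strand from RefSeq promoter sequences of GRCh38.p14, at chr12:21130944-21131193, chr12:20810455-20810704 and chr15:65045137-65045386. Capitals mark GTTAATNAT, a core recognised by homeodomain factors of liver, and AGGTCA, the nuclear receptor half-site, each searched on both strands, with no overlap between matches here.
SLCO1B1: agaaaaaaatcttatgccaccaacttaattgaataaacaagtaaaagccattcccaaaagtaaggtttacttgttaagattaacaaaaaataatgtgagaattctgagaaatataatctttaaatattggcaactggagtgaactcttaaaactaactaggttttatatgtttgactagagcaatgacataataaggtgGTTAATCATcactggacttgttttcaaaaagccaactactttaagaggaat
SLCO1B3: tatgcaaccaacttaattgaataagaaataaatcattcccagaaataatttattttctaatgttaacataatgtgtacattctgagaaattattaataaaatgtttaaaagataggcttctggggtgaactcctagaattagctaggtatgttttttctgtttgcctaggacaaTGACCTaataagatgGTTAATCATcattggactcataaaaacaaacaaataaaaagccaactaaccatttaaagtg
SLC51B: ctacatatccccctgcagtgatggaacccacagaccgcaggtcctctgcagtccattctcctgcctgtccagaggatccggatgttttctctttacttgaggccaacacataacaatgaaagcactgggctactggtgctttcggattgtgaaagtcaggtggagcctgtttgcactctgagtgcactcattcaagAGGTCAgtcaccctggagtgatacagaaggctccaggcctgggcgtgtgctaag
The SLCO1B1 and SLCO1B3 windows aligned over 226 bases with 182 identical, or 80.5% with the 48 gap columns left out and 66.4% of all 274 columns. GTTAATCAT stood 51 bases before the start of SLCO1B1 and 61 before that of SLCO1B3, whereas 0.723% of 35116 promoter windows of the same length hold a GTTAATNAT match. AGGTCA stood 54 bases before the start in SLC51B, and its complement TGACCT 76 bases before the start in SLCO1B3. SLC10A1 and SLC22A7 also had a match of this half-site, at 149 and 144 bases before the start, against 12.1% of all windows. Promoters were found for 7 of the 8 measured carriers, all but SLC22A9. The matches describe letters only, and binding was not measured.

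Deposited array medians lay between 327 and 451 intensity units, and the values were quantile normalized on the log2 scale before testing. The labelled liver origin was checked with 9 hepatocyte markers, and 8 of them exceeded the 95th percentile of the probes for olfactory receptor genes on all 4 arrays. For markers of other cell types the counts were 2 of 8 for bile duct cells, 1 of 8 for intestinal epithelium, 0 of 7 for kidney proximal tubule, 1 of 8 for fibroblasts and stellate cells and 1 of 7 for leukocytes. Most probes of an array lay below that level, and the share of all genes above it was not counted. ACOT12 itself stood at 8.28 and 7.47 in scramble and 7.58 and 7.37 in shACOT12 cells. The log2 difference was -0.40 (SE 0.35) with a limma adjusted p of 1, so a lower ACOT12 mRNA level was not detected. It was 0.0079 without scramble replicate 1 and -0.80 without scramble replicate 2, and the ACOT12 probe exceeded that olfactory receptor level on 0 of 4 arrays.

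Because no detection flags were used, 360 probes for 342 olfactory receptor genes, a family little used in liver cells, served as a level for probes with little signal. SLC51B and SLC22A9 stood above the 95th percentile of these probes on all 4 arrays, SLC51B above 97.8% to 98.3% of them and SLC22A9 above 95.6% to 96.7%. SLCO1B3 did so on 2 arrays, with 93.3% to 95.8% of the olfactory receptor probes at or below it. SLC22A7 lay above 73.3% to 88.9%, SLC51A above 53.9% to 69.2% and SLCO1B1 above 57.5% to 66.1% of these probes, inside the range of this family. SLC10A1, with 2.5% to 19.7%, and SLCO2B1, with 0.833% to 2.78%, lay below the median of the olfactory receptor probes on every array. By this measure a signal was clear for SLC51B. For SLC22A9 it was above that limit by a small margin, and for SLCO1B3 it was near that limit. Signal for SLC10A1, SLCO2B1, SLCO1B1, SLC51A and SLC22A7, above that limit on 0 of 4 arrays each, was not distinguishable from probes with little signal, which limits every fold given for these 5 genes. The limit is strict, since SLCO1B3 lay under it on shACOT12 replicate 2 (11.56 against 11.58) with 76.8% of all probes at or below SLCO1B3. The hepatocyte marker AHSG also exceeded it on 0 arrays. Of the 5 genes only SLC22A7 had a mean above the median of all genes, 9.38 against 9.14.

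**Figure D1:**
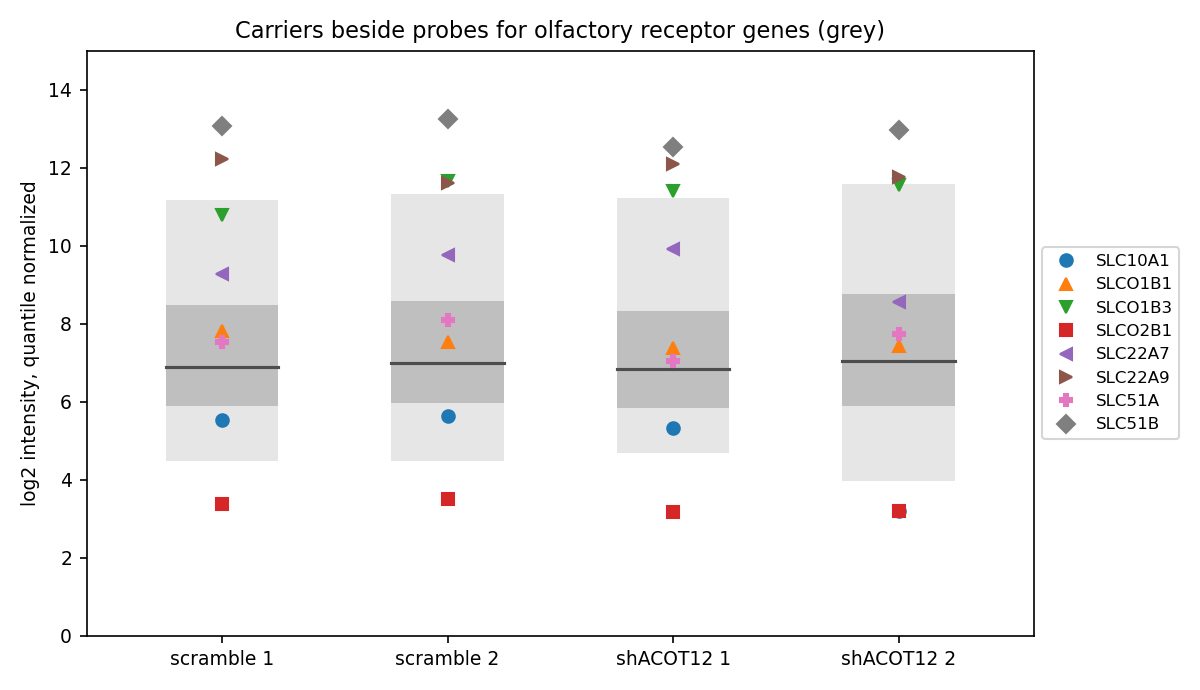
Quantile-normalized log2 intensity of the 8 measured carriers (coloured markers) on each of the 4 arrays, beside probes for olfactory receptor genes (light grey, 5th to 95th percentile; dark grey, 25th to 75th; line, median). SLC51B and SLC22A9 sit above the light grey bar on all 4 arrays and SLCO2B1 below it; on shACOT12 replicate 2 the SLC10A1 marker is hidden by that of SLCO2B1, since both are at 3.21.

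Between shACOT12 and scramble cells, none of the 8 carriers passed the threshold, an adjusted p of 0.05 in limma's test over all genes, as 0.00524% of the 19090 genes did, and the adjusted p was 1 for each. At an unadjusted p under 0.05 limma gave 0 carriers, against 1.76% of genes. Values were lower in shACOT12 cells for 6 of 8 carriers, against 48.6% of genes, with a median log2 fold change (shACOT12 minus scramble throughout) of -0.27 beside 0.0078 over all genes. Of these 6 carriers all but SLC51B had a signal not distinguishable from probes with little signal. The other 2 carriers, SLC22A9 and SLCO1B3, stood at 0.0041 and 0.26. The count and the median thus rest mainly on dim probes. Of the 8 bile duct markers 5 had lower and 3 higher values, with a median of -0.28 and 0 past the threshold. The log2 of their summed normalized intensities was 15.78 to 15.90 in scramble and 16.07 to 16.31 in shACOT12 cells. TFF3, the brightest of them and 1 of the 3 higher, stood at 14.93 and 15.07 in scramble and 15.88 and 15.69 in shACOT12 cells. The 9 hepatocyte markers had a median of -0.03, with 6 lower and 3 higher. Among them AFP stood at -0.78 (adjusted p = 1) and ALB at 0.49, with 0 of the list past the threshold. The part of either list in the carriers' values was not tested. The groups did not overlap for 4 carriers, SLC10A1, SLCO1B1, SLCO2B1 and SLC51B, each lower in shACOT12 cells, against 10.0% of genes with that pattern. Of these 4 only SLC51B exceeded the olfactory receptor level. The pattern held for SLC10A1 and SLC51B alone with values as deposited (2 of 8, against 9.44% of genes) and with 75th percentile scaling (2 of 8, against 8.18%). SLCO1B1 joined them with cyclic loess (3 of 8, against 10.6%), and with values below the 20th percentile raised to it the pattern was left for SLCO1B1 and SLC51B (2 of 8, against 8.81%). With 2 arrays per group an exact two-sided permutation test cannot give a p below 0.333, and the number of arrays limits the precision of every value.

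**Figure D2:**
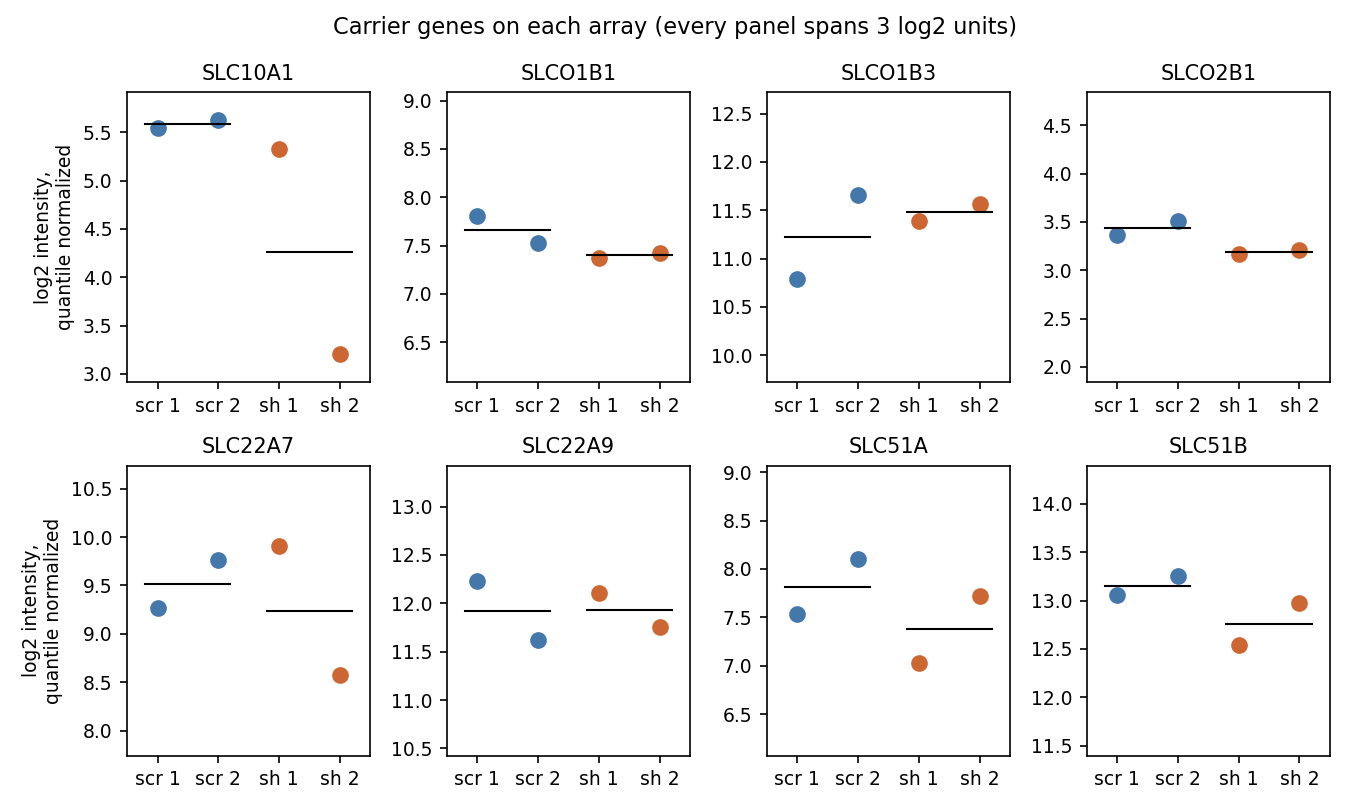
Quantile-normalized log2 intensity of each measured carrier on scramble (blue, scr) and shACOT12 (orange, sh) arrays, numbered by replicate, with the group means as lines (n = 2 each); every panel spans the same 3 log2 units. SLC10A1 ranges over 2.42 units, set by shACOT12 replicate 2, while SLCO2B1 and SLCO1B1 range over 0.34 and 0.43.

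SLC10A1 encodes the sodium taurocholate cotransporting polypeptide (NTCP), the main sodium-dependent bile acid uptake carrier of hepatocytes and the entry receptor of hepatitis B virus. Its deposited intensity was 47.9 and 44.0 in the scramble replicates and 28.2 and 24.99 in the shACOT12 replicates. Both shACOT12 values were lower than both scramble values. After normalization they became 5.54 and 5.62 in scramble and 5.32 and 3.21 in shACOT12 cells. The 2 shACOT12 arrays, close to each other as deposited, were thus set 2.11 units apart, because 9.60% of probes were at or below SLC10A1 on replicate 1 and 1.48% on replicate 2. The group means were 5.58 ± 0.06 and 4.26 ± 1.50 (SD, n = 2 each). Limma put the log2 fold change at -1.32 (SE 0.64, 95% confidence interval -2.84 to 0.21, adjusted p = 1). A difference of at least 2-fold, which 1.59% of genes had, was thus reached by 1 carrier after quantile normalization, at a level not distinguishable from little signal, and no fold is read from it. The log2 fold change was -0.79 with values as deposited, -0.76 after 75th percentile scaling and -0.89 after cyclic loess. Without shACOT12 replicate 2 it was -0.28. Deposited values near the bottom were whole multiples of 1 step of about 1 unit per array, and SLC10A1 held 49 and 48 steps in scramble and 25 steps on each shACOT12 array.

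SLCO1B1 encodes OATP1B1, the sodium-independent carrier of bile acids, bilirubin and statins. It read 219 and 185 intensity units in scramble cells against 134 and 212 in shACOT12 cells. As deposited, shACOT12 replicate 2 lay between the scramble arrays. Normalized values were 7.80 and 7.52 in scramble and 7.37 and 7.43 in shACOT12 cells, which no longer overlapped, with 7.52 and 7.43 as the nearest pair. The log2 fold change was -0.26 (SE 0.28, 95% confidence interval -0.93 to 0.41), smaller than its standard error, with -0.12 without scramble replicate 1 and -0.40 without scramble replicate 2.

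SLCO1B3 encodes OATP1B3, a close paralog with overlapping substrates, including the gut hormone cholecystokinin. Cancer cells are known to transcribe this gene also from a start inside it, and its single probe is not placed relative to that start here. It read 1734 and 3312 units in scramble cells against 2544 and 3101 in shACOT12 cells. Scramble replicate 1 was the low one, and both shACOT12 values lay between the scramble values. On the log2 scale the values were 10.79 and 11.66 against 11.39 and 11.56, a fold change of 0.26 (SE 0.36, 95% confidence interval -0.61 to 1.12), well within the scramble range of 0.87. Without scramble replicate 1 it turned to -0.18 and without scramble replicate 2 it was 0.70. Over the 4 arrays the root mean square distance between the centred log2 values of the paralogs was 0.48. This was more than the 0.17 and 0.34 by which SLCO1B1 and SLCO1B3 varied around their own means. Because SLCO1B1 was not distinguishable from probes with little signal, the distance cannot show whether the paralogs follow each other.

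SLCO2B1 encodes OATP2B1, a carrier of sulfated steroids and drugs found in liver and gut. It read 17.6 and 8.24 units in scramble cells against 2.26 and 24.99 in shACOT12 cells, at 18, 9, 2 and 25 steps. The highest and the lowest value were both in shACOT12 cells. Normalized values of 3.37 and 3.51 in scramble and 3.17 and 3.21 in shACOT12 cells had another order, and their log2 fold change of -0.25 (SE 0.27, 95% confidence interval -0.90 to 0.40) rests on the bottom 1.39% to 1.83% of the probes of an array. It was -0.68 with values as deposited, -0.65 after 75th percentile scaling and -0.87 after cyclic loess. Without shACOT12 replicate 1 it was -0.05 and without scramble replicate 1 -0.42. With values below the 20th percentile raised to it, SLCO2B1 and SLC10A1 both had no difference left (0).

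SLC22A7 encodes OAT2, a basolateral organic anion carrier. Its intensity was 600 and 901 in scramble and 869 and 447 in shACOT12 cells. One shACOT12 array was the lowest of the 4, and the other lay between the scramble arrays as deposited and above both after normalization. Normalized values were 9.26 and 9.77 against 9.91 and 8.57, a log2 fold change of -0.27 (SE 0.48, 95% confidence interval -1.41 to 0.86) beside a range of 1.34 within shACOT12 cells. The difference was 0.65 between the arrays numbered 1 and -1.20 between those numbered 2, and without shACOT12 replicate 2 the fold change was 0.41.

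SLC22A9 encodes OAT7, an organic anion carrier found mainly in human liver. It read 4777 and 3231 units in scramble cells against 4251 and 3531 in shACOT12 cells. Both shACOT12 values lay between the scramble values. The normalized values, 12.23 and 11.62 against 12.10 and 11.75, gave group means of 11.93 ± 0.43 and 11.93 ± 0.25 (SD, n = 2 each) and a log2 fold change of 0.0041 (SE 0.33, 95% confidence interval -0.79 to 0.79). The interval still allows changes of that size either way.

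SLC51A and SLC51B encode OSTα and OSTβ, the subunits of the bile acid exporter, which reach the membrane only together. SLC51A read 182 and 282 units in scramble cells against 105 and 258 in shACOT12 cells. Scramble replicate 2 was highest and shACOT12 replicate 1 lowest, and the groups overlapped. Its normalized values were 7.53 and 8.11 against 7.03 and 7.72, a log2 fold change of -0.44 (SE 0.36, 95% confidence interval -1.31 to 0.43).

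SLC51B read 8501 and 9767 units in scramble cells against 5874 and 8108 in shACOT12 cells. Again scramble replicate 2 was highest and shACOT12 replicate 1 lowest, but here the groups did not overlap. The normalized values of 13.06 and 13.25 in scramble and 12.54 and 12.98 in shACOT12 cells gave means of 13.16 ± 0.14 and 12.76 ± 0.31 (SD, n = 2 each). Its log2 fold change was -0.40 (SE 0.30, 95% confidence interval -1.11 to 0.32), or 1.32-fold lower. The groups of SLC51B stayed apart under each of the 5 scalings and floors tried, the only carrier of which this held, although the nearest values, 13.06 and 12.98, differed by less than the range within either group, 0.20 and 0.44. Without 1 array SLC51B ranged from -0.62 to -0.18 and SLC51A from -0.79 to -0.09, for both the value nearest 0 when shACOT12 replicate 1 was left out. Over the 4 arrays the distance between the centred values of SLC51A and SLC51B was 0.16, against 0.39 and 0.26 around their own means. This nearness was not particular to the subunits, since 54 of 9544 genes at or above the median level lay within 0.1 of SLC51B. SLC51A was also above the olfactory receptor level on 0 of 4 arrays.

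**Figure D3:**
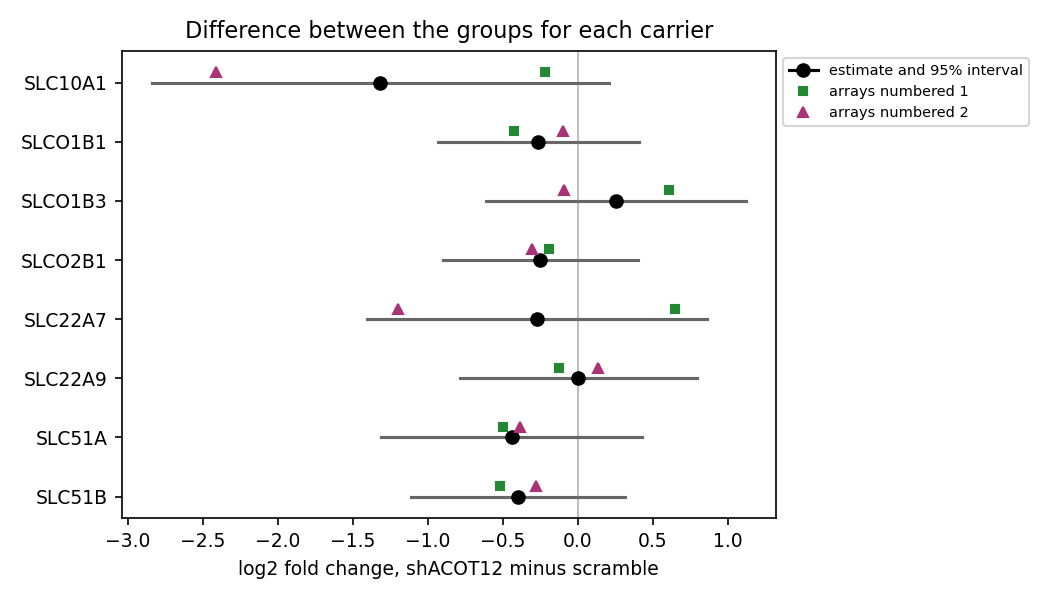
Log2 fold change, shACOT12 minus scramble, of each measured carrier with its 95% confidence interval from limma (black), and the differences between the arrays numbered 1 (green squares) and between those numbered 2 (purple triangles). Each interval includes 0; the numbered differences lie on opposite sides of 0 for SLCO1B3, SLC22A7 and SLC22A9.

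The patterns most like those of 2 carriers were looked for among genes at or above the median level, by the smallest root mean square distance of centred log2 values over the 4 arrays. For SLC10A1 these were KCNH6 (0.080), KCNT1 (0.11) and WEE2-AS1 (0.19), all of them low on shACOT12 replicate 2, where KCNH6 stood at 7.96 against 10.17 to 10.27 on the other arrays. Since SLC10A1 lies well below the other shACOT12 array there only after normalization, this likeness rests on the normalized values of a probe with little signal. SLC51B, the carrier with the largest difference among those at or above the median, was closest to PSAP (0.025), SBNO1 (0.030) and PSTPIP2 (0.036), and 54 of 9544 genes lay within 0.1 of it. With 4 arrays such likeness describes these arrays only.

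Among 31 measured relatives in the SLC10, SLCO and SLC22 families, 0 passed the limma threshold in either direction, against 0.00524% of all genes. An unadjusted p under 0.05 was found for 1, against 1.76% of all genes. Values were higher in shACOT12 cells for 21 and lower for 10, beside 48.6% of all genes lower. The median log2 fold change was 0.08, where the 8 carriers had -0.27. Above the olfactory receptor level on all 4 arrays were 2 of the 31 relatives and 2 of the 8 carriers. Both medians thus rest mainly on genes not above it on every array. The share of all genes above it was not counted. SLC22A10, an organic anion transporter relative that lies beside SLC22A9, stood at 0.23 (SE 0.31), SLC22A31 at 0.20 (SE 0.57) and SLC10A7 at 0.17 (SE 0.27). SLC22A10 turned to -0.06 without shACOT12 replicate 1 and was 0.53 without shACOT12 replicate 2. SLC22A31 turned to -0.55 and -0.32 without shACOT12 replicate 1 and scramble replicate 2, and was 0.996 without shACOT12 replicate 2 and 0.73 without scramble replicate 1. The 1 gene of this list with an unadjusted p under 0.05 was SLC22A15, named after its values were seen, at 8.60 and 7.92 in scramble and 9.57 and 9.12 in shACOT12 cells. The difference was 1.09 on the log2 scale (SE 0.35, adjusted p = 1). Its level was below the median of all genes. SLC22A15, SLC22A10 and SLC22A31 exceeded the olfactory receptor level on 0 of 4 arrays each, which limits their folds.

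Efflux transporters move bile salts, phospholipids, sterols and conjugates out of the hepatocyte. Of 12 measured, 0 passed the limma threshold in either direction, against 0.00524% of all genes. Values were lower for 7, beside 48.6% of all genes, and the median was -0.04. ABCG5, a subunit of the exporter of sterols into bile, stood at 10.24 and 9.94 in scramble and 8.94 and 8.88 in shACOT12 cells. The difference of -1.18 on the log2 scale (SE 0.28, adjusted p = 1) ranged from -1.34 to -1.02 without 1 array. ABCG8, its partner subunit, named after its values were seen and dimmer, stood at 8.95 and 7.91 against 7.65 and 6.85, also a fold change of -1.18 (SE 0.45, adjusted p = 1), which was -0.67 without scramble replicate 1 and -1.69 without scramble replicate 2. These were the 2 of 12 efflux genes that differed at least 2-fold, against 1.59% of all genes, and the 2 with an unadjusted p under 0.05, against 1.76%. ABCG5 and ABCG8 each exceeded the olfactory receptor level on 0 arrays. Their signal was thus not distinguishable from probes with little signal, which limits both folds. ABCB1, the multidrug exporter, and ABCG2, the breast cancer resistance protein, stood at 0.29 (SE 0.34) and 0.18 (SE 0.28). Without 1 array ABCB1 ranged from -0.06, without scramble replicate 2, to 0.64, without scramble replicate 1, and ABCG2 from 0.06 to 0.30 for the same arrays.

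Bile acid synthesis and conjugation had 7 of 17 measured genes higher and 10 lower, beside 48.6% of all genes lower, and a median of -0.06. Past the limma threshold were 0, and 0 had an unadjusted p under 0.05, against 0.00524% and 1.76% of all genes. CYP39A1, an oxysterol hydroxylase, stood at 11.32 and 11.13 in scramble and 11.90 and 11.72 in shACOT12 cells, a difference of 0.59 on the log2 scale (SE 0.28, adjusted p = 1). SULT2A1, the bile acid sulfotransferase, stood at 0.33 (SE 0.28) and AKR1C4, a hydroxysteroid dehydrogenase of liver, at -0.27 (SE 0.36). Without scramble replicate 2 AKR1C4 turned to 0.14 and SULT2A1 was 0.17, while without scramble replicate 1 they were -0.67 and 0.49; AKR1C4 was also -0.08 without shACOT12 replicate 1 and -0.46 without shACOT12 replicate 2.

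Bile acid sensing and carrier regulation had 10 of 19 measured genes higher and 9 lower, beside 48.6% of all genes lower, and a median of 0.02. In limma 0 passed the threshold and 0 had an unadjusted p under 0.05, against 0.00524% and 1.76% of all genes. CEBPB, a liver basic leucine zipper factor, stood at -0.58 (SE 0.42), RARA, a retinoic acid receptor, at 0.52 (SE 0.38) and FOXA3, a forkhead factor of liver, at -0.37 (SE 0.28). The scramble arrays set the first 2 values: CEBPB was -1.12 without scramble replicate 1 and -0.03 without replicate 2, and RARA 1.01 and 0.03. RARA also exceeded the olfactory receptor level on 0 arrays, which limits its fold. NR0B2, the small heterodimer partner that bile acids induce and that lowers SLC10A1 transcription, stood at 10.95 and 11.37 in scramble and 10.95 and 11.41 in shACOT12 cells, a difference of 0.02 on the log2 scale (SE 0.32). Its values overlapped, with replicate 2 above replicate 1 in both groups.

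**Figure D4:**
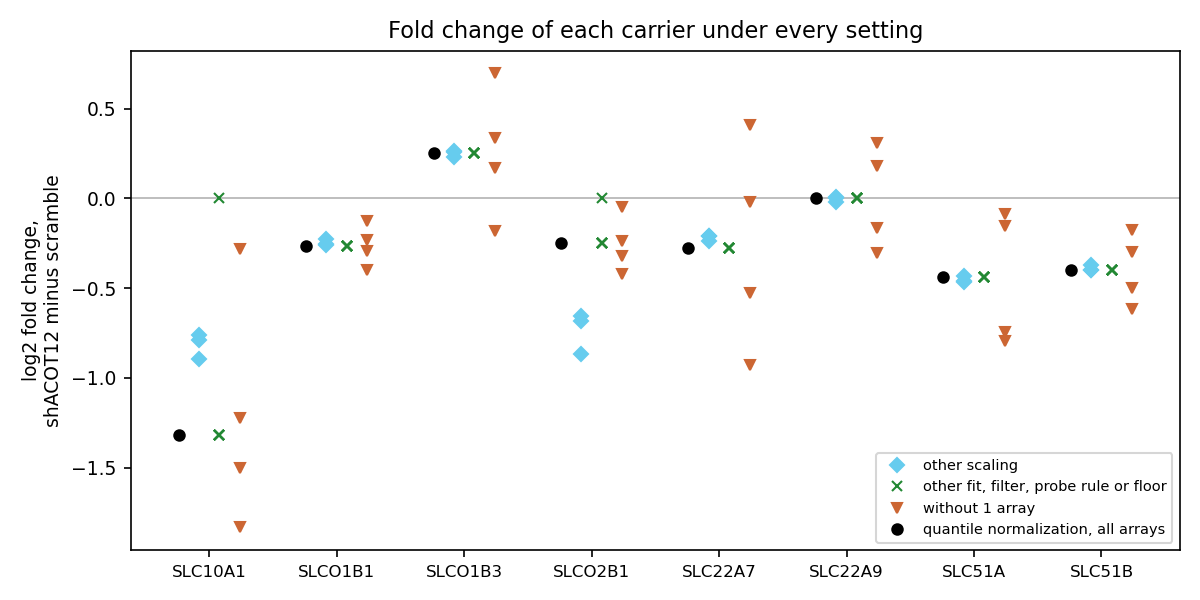
Log2 fold change, shACOT12 minus scramble, of each measured carrier with all arrays and quantile normalization (black circles), under the other scalings (light blue diamonds), under another prior, block, filter, probe rule or floor (green crosses) and without 1 array (orange triangles). SLCO1B1, SLC51A and SLC51B lie below 0 under every setting, while SLCO1B3, SLC22A7 and SLC22A9 lie on both sides; for SLC10A1 and SLCO2B1 the cross at 0 is the raised floor.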

How the data were processed

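RNA of Huh7 cells was labelled with Cy5, per the labels' protocols. The deposited values were intensities on a linear scale, 1 per probe and array. The scanner and any background correction or scaling by the authors are not given in the sources used here. The steps of low deposited values were 0.979 and 0.916 in scramble and 1.13 and 0.9997 in shACOT12 replicates 1 and 2. The deposited values may thus already have been scaled per array. Values under 1 were set to 1 (3 to 264 probes per array) and converted to log2. Array log2 medians differed by 0.462, over the limit of 0.1, so arrays were quantile normalized. Probes were named through the platform's annotation, 25893 of them with 1 symbol, 0 with several and 2371 with none, and each gene took its probe with the highest mean. The comparison used limma 3.58.1 under R 4.3.3 (2 residual and 4.69 prior degrees of freedom, no block), adjusted by Benjamini-Hochberg over 19090 genes, which was tested on simulated data. Promoters were aligned with Biopython 1.88.

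The members and lists were chosen with earlier results of these data known. Named were all carriers, ACOT12, the genes past the threshold or otherwise the 3 largest changes at or above the median in each list, and the 3 patterns nearest to SLC10A1 and to the bright carrier with the largest change. NR0B2, ABCG8 and SLC22A15 were named after their values were seen.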

Additional observations from a re-analysis of the deposited data

How the results depend on the processing

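With values as deposited 1 carrier had an unadjusted p under 0.05 in limma, against 157 of 19090 genes. With the replicate block 1 carrier, SLC10A1, had one, against 704 of 19090 genes. No carrier passed the limma threshold under any of the 14 alternatives tried. The count of genes past it, 1, was 0 with values as deposited, 75th percentile scaling, cyclic loess or a floor at the 20th percentile, 3 with an intensity trend in the prior and 25 with the replicate number as a replicate block, and 0 whichever array was left out. Unadjusted, 255 to 761 genes had a p under 0.05 without 1 array, where the lone array of a group is assumed to vary like those of the other group, from which limma then takes the spread. The median log2 fold change of the carriers, -0.27, was -0.13 with that floor, by whose construction SLC10A1 and SLCO2B1 have 0, and ranged from -0.46 to -0.17 without 1 array. With the dimmest 30% of genes left out 6 carriers remained. SLC22A9, at 0.0041, was -0.020 with values as deposited and ranged from -0.30 to 0.31 without 1 array, below 0 without scramble replicate 2 and without shACOT12 replicate 1 (-0.17). Without 1 array SLCO1B3 ranged from -0.18, without scramble replicate 1, to 0.70, and SLC22A7 from -0.93 to 0.41, without shACOT12 replicate 2. The cause of these turns was not tested. The labels do not say that a replicate number marks a shared batch; the deviations of same-numbered arrays correlated at 0.184 over genes, and with the block the smallest adjusted p of a carrier was 0.585, for SLC10A1. Slide and scan batch were not analysed here.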
